A study of Mus musculus with 42 samples.

Results

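The paraventricular nucleus (PVN) of the hypothalamus was compared between fasted and fed mice in 11 of the 42 RNA-seq libraries of the series, 6 from mice fed ad libitum and 5 from mice fasted for 24 hours, over all 37907 genes of the deposited table. The other 31 libraries covered 3 neighbouring nuclei, the arcuate (ARC), ventromedial (VMH) and dorsomedial (DMH), under the same 2 nutritional states. Every animal was an adult wild-type C57/BL6 male with no allele or drug added, so fasting was the only difference between the groups that the labels name. Nuclei were cut out of thin frozen sections under a laser, and the small amounts of RNA were amplified before sequencing, which adds noise to genes with few reads. The nuclei were taken from the same brains, but the labels do not say which libraries share a mouse, so libraries were treated as independent. The study calls the libraries of a nucleus and state biological replicates.

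The PVN is the hypothalamic nucleus where hunger, stress and fluid balance meet the pituitary gland. Its large neurons make oxytocin (Oxt) and vasopressin (Avp), its smaller neurons make corticotropin-releasing hormone (Crh) and thyrotropin-releasing hormone (Trh), and it carries the melanocortin receptors through which ARC neurons control food intake. Crh starts the hormone cascade that ends in adrenal glucocorticoids, which act back on the PVN through the glucocorticoid receptor. In these data the question was which genes of the PVN moved with a 24-hour fast.

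The PVN libraries carried the markers of their label. The summed level of 8 PVN markers (Oxt, Avp, Sim1, Crh, Trh, Otp, Fezf2 and Pou3f2) was 4673 to 8772 RPKM in fed and 4771 to 7228 RPKM in fasted PVN libraries, against fed means of 95.7 RPKM (ARC), 30.1 RPKM (VMH) and 87.3 RPKM (DMH). Oxt and Avp made up most of each sum. Of the 8 markers, 0 passed, 6 had a change below 0 and the median change was -0.22. RPKM is the reads of a gene per kilobase, scaled to the reads of the library. The deposited values also include reads added to every gene, so low levels cannot be compared between genes. The estimated depth was 4.80 ± 1.55 M reads in fasted (SD, n = 5) and 4.59 ± 1.57 M reads in fed libraries (n = 6), which did not differ beyond their spread (two-sided exact permutation p = 0.827). It ranged from 1.88 to 6.62 M reads within the PVN, and fed library 2 was the shallowest. These depths are estimated from the deposited values. The study reports a larger average of reads sequenced per sample over all its nuclei. Pairs of PVN libraries correlated at 0.929 to 0.981 on the log2(RPKM + 1) scale across all 37907 genes. These include genes with 0 reads in every PVN library, which can raise the correlations. By their recurring low values the PVN libraries fell into 3 sets, taken here as batches that the labels do not name, and each held libraries of both states.

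In the PVN, 24 of 33579 genes tested (0.0715%) passed an adjusted p under 0.1 in limma, 18 higher (0.0536%) and 6 lower (0.0179%) in fasted than in fed mice. With quantile normalization 24 genes also passed, 21 higher and 3 lower, but only 21 of them were among the 24 above. The genes that rose included Rgs2, which shortens signals from G protein-coupled receptors, the adaptor gene Fyb2, several genes known to be switched on by glucocorticoids (Fam107a, Glul, Hif3a, Cdkn1a and Bcl6) and the phosphatase inhibitor gene Ppp1r17. The genes that fell were the chaperone genes Hsp90aa1 and Dnaja1, the opioid peptide gene Pdyn, the lipid desaturase gene Scd2, the transcription factor gene Sox1 and the cadherin gene Fat1. All changes below are fasted minus fed on the log2(RPKM + 1) scale, which understates the change of a gene near or below 1 RPKM, with the standard error (SE) of the fit. The libraries of the 2 states did not overlap for 13 of the 18 genes that rose and 5 of the 6 that fell, against 74 (0.22%) and 61 (0.182%) of all genes tested. These shares are lowered by 9595 genes that had 0 reads in all 11 PVN libraries. The change had the same direction in each of the 3 batches for 23 of the 24 genes. These genes were chosen on the same libraries, so neither count is independent of the call. An unadjusted p under 0.05 was reached by 1857 genes (5.53%), 1009 higher (3%) and 848 lower (2.53%).

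**Figure D1:**
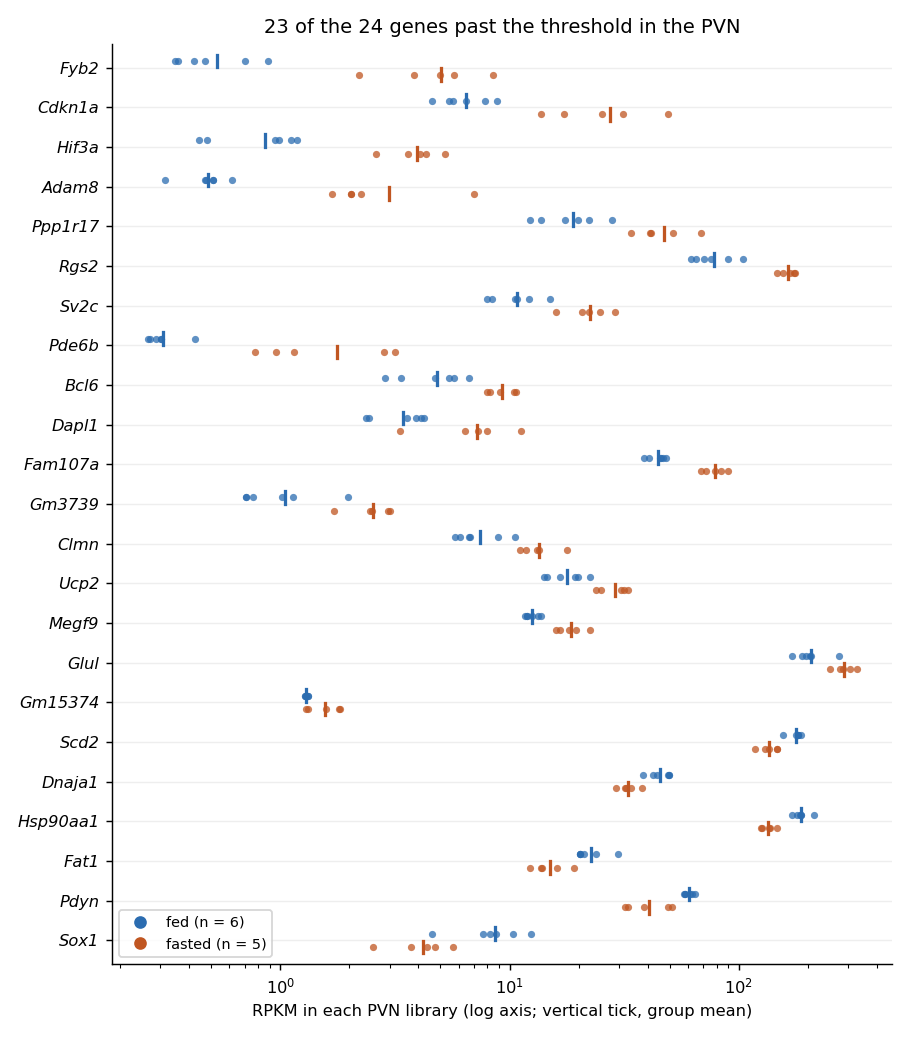
RPKM of 23 of the 24 genes past the threshold in each PVN library, on a log axis, ordered by the size of the change. Blue points are the 6 fed and orange points the 5 fasted libraries, and vertical ticks are group means. For Rgs2 the fed libraries end at 104 and the fasted libraries begin at 147 RPKM, while Dapl1, Glul, Gm15374, Gm3739 and Sox1 have overlapping groups.

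Rgs2 (ENSMUSG00000026360, chromosome 1, 143999338 to 144004161, GRCm38) had the smallest p of the comparison. It speeds the shutdown of G proteins, chiefly those that signal through calcium. Its level ran from 62.1 to 104 RPKM in fed libraries, with a median of 73.0, and was 167, 147, 175, 177 and 156 RPKM in the 5 fasted libraries. Every fasted library lay above every fed one. The mean went from 77.9 ± 16.2 RPKM (SD, n = 6) to 164 ± 12.7 (n = 5), a 2.11-fold difference, and the log2 change was 1.09 ± 0.13 (SE; limma adjusted p = 1.12e-05). Among the 17 members of the RGS family that were tested, Rgs2 was the only one past the threshold, 11 had a lower mean, and the median change was -0.17. Rgs4, another regulator of G proteins, went from 76.2 ± 7.14 to 55.9 ± 8.50 RPKM without overlap, but its adjusted p was 0.381.

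Fyb2 (ENSMUSG00000078612, chromosome 4, 104913456 to 105016863) codes for an adaptor protein related to one that links T-cell receptors to the actin cytoskeleton. Its level in fed libraries was 0.346 to 0.889 RPKM, with a median of 0.447. In fasted libraries it was 5.73, 8.47, 3.84, 4.996 and 2.22 RPKM. The gene was thus low in each fed library and several times higher in each fasted one. The means were 0.531 ± 0.217 and 5.05 ± 2.33 RPKM, with a log2 change of 1.90 ± 0.23 (adjusted p = 1.12e-05). The deposited values include reads added to every gene, so no fold is given for a gene this low. Of the 8 actin and adaptor genes tested as a list, no other gene passed.

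Genes known to be induced by glucocorticoids made up 5 of the 18 genes that rose. This list held 24 genes, all tested, of which 5 rose, 0 fell and 19 did not pass. Of the 24, 21 had a change above 0, 15 reached an unadjusted p under 0.05 in that direction, and the median change was 0.62 against 0 over all genes tested. The 7 members whose groups did not overlap were Fam107a, Hif3a, Cdkn1a, Bcl6, Fkbp5, Plin4 and Per1. Of all genes tested, 0.0536% rose, 3% were higher at an unadjusted p under 0.05 and 0.22% were higher without overlap. These shares include the 9595 genes with 0 reads in all 11 PVN libraries. The members of the list were chosen with earlier results of these data known, so its counts are not independent of them.

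Fam107a (ENSMUSG00000021750, chromosome 14, 8296274 to 8318023) codes for an actin-binding protein of the stress response. It was at 38.7 to 48.0 RPKM in fed libraries (median 45.7) and at 83.6, 71.9, 78.4, 89.5 and 68.7 RPKM in fasted ones. The groups were narrow and well apart. The log2 change was 0.81 ± 0.12 (adjusted p = 0.000437).

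Cdkn1a codes for p21, an inhibitor of the cell cycle. It was at 4.60 to 8.86 RPKM in fed libraries (median 6.08) and at 49.0, 25.3, 31.3, 17.3 and 13.7 RPKM in fasted ones, a log2 change of 1.81 ± 0.38 (adjusted p = 0.0573). The lowest fasted library was above the highest fed one, but the fasted libraries differed widely among themselves. A neighbouring gene covers 7.68% of its exon length, so a small part of its reads is uncertain.

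Hif3a, a hypoxia-inducible transcription factor gene, was at 0.443 to 1.19 RPKM in fed libraries (median 0.967) and at 5.21, 3.61, 4.34, 4.05 and 2.61 RPKM in fasted ones (log2 change 1.41 ± 0.28, adjusted p = 0.0374). Bcl6, which codes for a transcriptional repressor, was at 2.86 to 6.68 RPKM (median 5.10) and at 9.08, 10.6, 10.4, 8.24 and 7.97 RPKM (0.86 ± 0.19, adjusted p = 0.0922). Glul codes for glutamine synthetase, the astrocyte enzyme that turns glutamate into glutamine. It was at 171 to 273 RPKM in fed libraries (median 199.9) and at 275, 250, 328, 284 and 305 RPKM in fasted ones (0.49 ± 0.10, adjusted p = 0.0349). Its groups overlapped because fed library 5, at 273 RPKM, stood above the other fed libraries, which ended at 206 RPKM.

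Several classical members of the glucocorticoid list were near the threshold without passing it. Fkbp5, a co-chaperone that damps the glucocorticoid receptor, went from 2.16 ± 0.73 to 6.78 ± 2.05 RPKM (log2 change 1.30 ± 0.30, adjusted p = 0.140). Plin4, a coat protein of lipid droplets, went from 0.299 ± 0.138 to 1.81 ± 0.937 RPKM (1.05 ± 0.25, adjusted p = 0.140). The clock gene Per1 went from 5.68 ± 1.28 to 9.75 ± 0.827 RPKM (0.70 ± 0.21, adjusted p = 0.416). The list was not uniform. Sgk1 had a change of 0.51 ± 0.30, Dusp1 of 0.12 ± 0.29 and Lcn2 of 0.03 ± 0.18, each with an adjusted p of 1. The glucocorticoid receptor gene itself, Nr3c1, was at 23.6 ± 5.27 RPKM in fed and 17.2 ± 4.67 RPKM in fasted libraries (-0.44 ± 0.15, adjusted p = 0.628).

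Cytosolic chaperones, which fold new and damaged proteins and hold the glucocorticoid receptor ready to bind hormone, lay on the other side. All 24 members of this list were tested, 2 fell, 0 rose and 22 did not pass. They too were chosen with earlier results of these data known. All 24 had a change below 0, 12 of them at an unadjusted p under 0.05 (2.53% of all genes), and the median was -0.31. Among all genes tested, 15651 had a change below and 13183 above 0. Of all genes tested, 9595 had 0 reads in all 11 PVN libraries. Many of these still have a sign, so the tally is not a background of genes with reads.

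**Figure D2:**
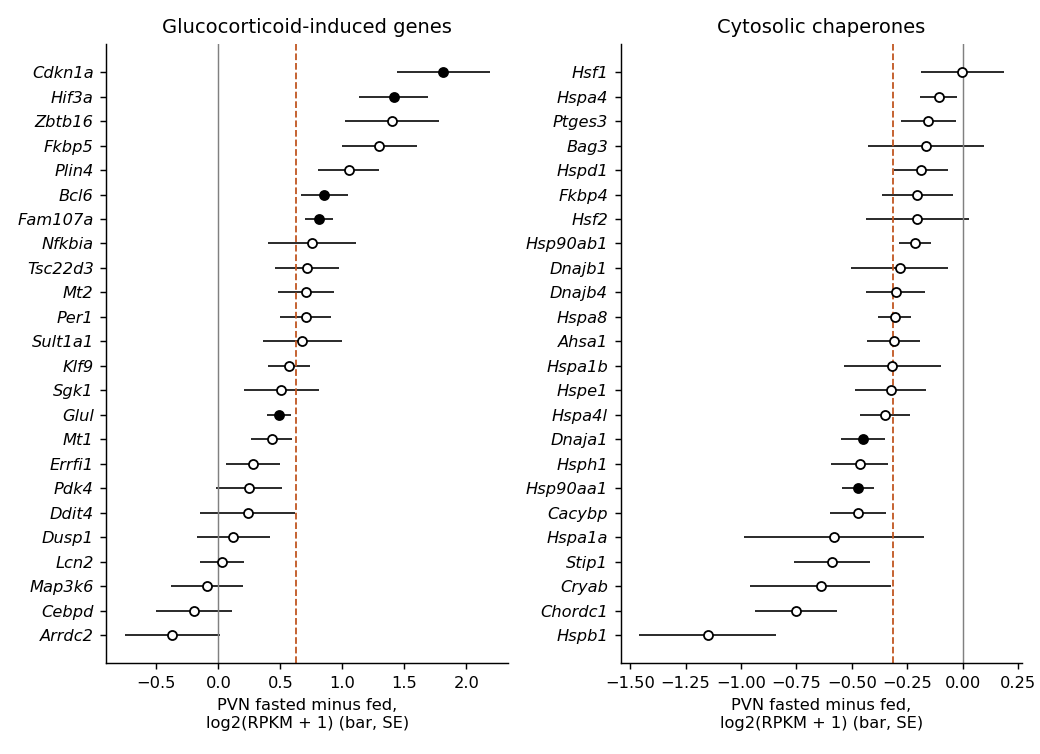
Change of each member of the 2 lists in the PVN, fasted minus fed on the log2(RPKM + 1) scale, with SE bars. Filled points passed the threshold, and the dashed lines mark the list medians of 0.62 for the glucocorticoid-induced genes and -0.31 for the cytosolic chaperones. The chaperones all lie below 0, and 21 of the 24 glucocorticoid-induced genes lie above it.

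Hsp90aa1 (ENSMUSG00000021270, chromosome 12, 110690605 to 110702728) codes for the stress-inducible form of HSP90. It was at 171 to 213 RPKM in fed libraries (median 186) and at 126, 136, 146, 125 and 137 RPKM in fasted ones. The groups were apart by a narrow gap, and the log2 change was -0.47 ± 0.07 (adjusted p = 0.00166). Dnaja1, an HSP40 partner of the HSP70 chaperones, was at 38.3 to 49.7 RPKM (median 46.5) and at 29.1, 32.3, 33.9, 37.7 and 31.8 RPKM (-0.45 ± 0.10, adjusted p = 0.0922). Both levels are uncertain in part, because 47.5% of the 50-base stretches of Hsp90aa1 and 20.6% of those of Dnaja1 recur in other genes, mostly pseudogenes, and Dnaja1 exons overlap Smu1 over 10.8% of their length. Hspa8, the constitutive HSP70, went from 175 ± 17.1 to 142 ± 13.3 RPKM (-0.31 ± 0.08, adjusted p = 0.180). Chordc1, an HSP90 co-chaperone, went from 57.7 ± 15.2 to 33.7 ± 8.59 RPKM (-0.75 ± 0.19, adjusted p = 0.180). The master regulator of the heat shock response, Hsf1, was at 26.9 ± 6.06 and 26.7 ± 4.65 RPKM. Chaperones of the endoplasmic reticulum were a separate list of 22 genes, of which 0 passed, with a median of -0.08.

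The lists of chaperone and glucocorticoid genes each have a known DNA element, so RefSeq promoter windows (250 bases before to 50 after a gene start, GRCm38.p6) were searched on both strands. A window was held for 19 of the 24 genes past the threshold. A heat shock element is built of inverted units of GAA, searched as GAANNTTC and as TTCNNGAA, which can overlap each other in a longer element. The first is in 7.86% and the second in 8.52% of all 32851 windows, and either is in 15.1%. Among chaperone genes, 11 of the 19 with a window held either unit (57.9%), against 17% of all 27025 genes with a window. Dnaja1 is printed as the chaperone past the threshold that holds a match, which is in 1 of its 3 windows and not in the other two. AGAACA, a unit of the glucocorticoid response element, is in 19.0% of all windows and in those of 5 of the 22 listed glucocorticoid-induced genes with a window (22.7%), against 21.3% of all genes. Fam107a is printed as the member of that list with the smallest p. Of its 3 windows, 2 that lie 2 bases apart hold AGAACA and the one at the outermost start does not. Rgs2 is printed as the gene with the smallest p, whose window held none of the motifs searched. The cAMP response element TGACGTCA is in 1.79% of all windows and in 0 of those of the genes past the threshold. The full glucocorticoid response element (AGAACA and its reverse complement, 3 bases apart) is in 0.00913% of all windows and in 0 of those of the genes past the threshold. Among the glucocorticoid-induced genes, 1 of 22 (4.55%) held it, Sgk1, against 0.0111% of all genes. These matches describe letters in a window and say nothing of a bound factor. The 250 bases before the start follow, 5′ to 3′ on the strand of the gene, at chr4:40722218-40722467 (plus strand) for Dnaja1, chr14:8309778-8310027 (minus strand) for Fam107a and chr1:144004150-144004399 (minus strand) for Rgs2, with the matches in capitals (the heat shock unit in Dnaja1, AGAACA or its reverse complement in Fam107a).
Dnaja1: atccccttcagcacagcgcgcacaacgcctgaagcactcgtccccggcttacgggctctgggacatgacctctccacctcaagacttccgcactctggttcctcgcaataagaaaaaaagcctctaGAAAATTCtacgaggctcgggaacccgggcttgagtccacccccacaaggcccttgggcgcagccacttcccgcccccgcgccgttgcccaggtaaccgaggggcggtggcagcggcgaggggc
Fam107a: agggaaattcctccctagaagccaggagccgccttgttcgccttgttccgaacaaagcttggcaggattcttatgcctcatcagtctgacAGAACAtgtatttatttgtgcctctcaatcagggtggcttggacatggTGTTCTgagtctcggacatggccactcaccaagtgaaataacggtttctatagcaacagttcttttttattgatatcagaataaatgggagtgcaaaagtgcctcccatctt
Rgs2: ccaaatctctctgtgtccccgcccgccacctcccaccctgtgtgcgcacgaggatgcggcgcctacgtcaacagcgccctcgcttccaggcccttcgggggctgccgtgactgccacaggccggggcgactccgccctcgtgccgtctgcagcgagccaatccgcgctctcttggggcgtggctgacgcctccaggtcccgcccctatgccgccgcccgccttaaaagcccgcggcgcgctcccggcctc

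The neuropeptide genes that define the PVN were measured at high levels, and of 19 tested, 1 fell, 0 rose and 18 did not pass. Their median change was 0.00. Pdyn (ENSMUSG00000027400, chromosome 2, 129686565 to 129699844), the precursor of the dynorphin opioids that vasopressin neurons also release, was the one that fell. It was at 57.8 to 64.6 RPKM in fed libraries (median 59.7) and at 32.7, 38.5, 31.9, 49.2 and 51.4 RPKM in fasted ones. The fed libraries were within a few RPKM of each other, and the fasted ones were all lower and more spread. The log2 change was -0.58 ± 0.12 (adjusted p = 0.0573). Another opioid precursor, Penk, was at 108 ± 6.07 and 111 ± 31.0 RPKM.

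**Figure D3:**
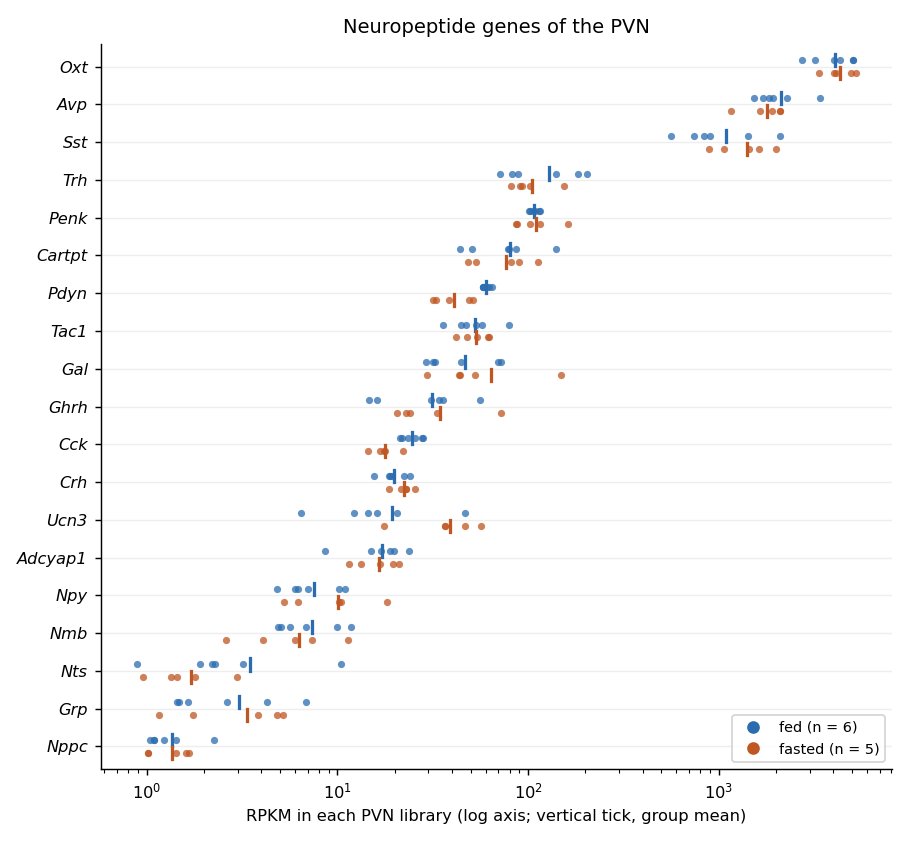
RPKM of the 19 neuropeptide genes tested in each PVN library, on a log axis, ordered by the fed mean. Blue points are the 6 fed and orange points the 5 fasted libraries, and vertical ticks are group means. Oxt and Avp lie well above most of the other genes in both states with overlapping libraries, and Pdyn is the gene whose groups separate.

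Oxt was the most abundant neuropeptide gene. It was at 2744 to 5076 RPKM in fed libraries (median 4175) and at 3342, 4110, 4940, 4020 and 5280 RPKM in fasted ones (log2 change 0.11 ± 0.45, adjusted p = 1). Avp was at 1536 to 3400 RPKM (median 1884) and at 1166, 1906, 2108, 2100 and 1642 RPKM (-0.22 ± 0.34, adjusted p = 1). Oxt and Avp have 15.98% and 14.8% of their 50-base stretches in common, which leaves that part of both levels uncertain. Crh was at 15.5 to 24.1 RPKM (median 19.2) and at 22.9, 25.4, 21.6, 22.9 and 18.6 RPKM (0.17 ± 0.18, adjusted p = 1). Trh, which drives the thyroid axis, was at 71.3 to 205 RPKM (median 114) and at 155, 81.1, 90.3, 103 and 93.5 RPKM (-0.22 ± 0.37, adjusted p = 1). For these 4 hormones the fed and fasted libraries overlapped. With only the PVN libraries in the fit the SE was 0.22 (Oxt), 0.23 (Avp), 0.11 (Crh) and 0.31 (Trh), and each adjusted p was again 1.

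Sst, the precursor of somatostatin, was at 1098 ± 573 and 1401 ± 441 RPKM (0.44 ± 0.22, adjusted p = 0.943). Ucn3, a ligand of the second Crh receptor, was at 6.47 to 46.9 RPKM in fed libraries (median 15.3) and at 56.3, 36.5, 46.9, 17.7 and 36.7 RPKM in fasted ones. Most fasted libraries were above most fed ones, but fed library 1 was as high as fasted library 3, and the change of 1.11 ± 0.41 missed the threshold (unadjusted p = 0.0099, adjusted p = 0.706).

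The enzymes and granule proteins that turn prohormones into peptides did not pass. Of 15 genes, 9 had a change above and 6 below 0, with a median of 0.02. The prohormone convertase gene Pcsk1 was at 39.7 ± 8.57 and 39.2 ± 6.30 RPKM, its partner Pcsk2 at 39.8 ± 5.55 and 40.3 ± 4.27 RPKM, and carboxypeptidase E (Cpe) at 745 ± 40.2 and 749 ± 73.8 RPKM. Vgf, a secretory precursor, went from 33.6 ± 11.6 to 46.5 ± 8.60 RPKM (0.50 ± 0.22, adjusted p = 0.869). Nhlh2, a transcription factor gene linked to Pcsk1, was at 7.02 ± 1.84 and 7.70 ± 2.45 RPKM.

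Among 24 receptors and receptor-linked genes of feeding signals, 0 passed, 16 had a change below 0 and the median was -0.09. The melanocortin receptor Mc4r was at 3.996 ± 2.60 RPKM in fed and 3.85 ± 2.37 RPKM in fasted libraries. The GLP-1 receptor Glp1r was at 32.5 ± 11.6 and 22.2 ± 9.86 RPKM, the leptin receptor Lepr at 0.737 ± 0.212 and 0.635 ± 0.145 RPKM, and the insulin receptor Insr at 16.6 ± 1.77 and 16.4 ± 2.96 RPKM. The smallest unadjusted p in this list was that of the cholecystokinin receptor Cckbr, at 3.28 ± 2.10 and 1.33 ± 0.927 RPKM (-0.83 ± 0.28, adjusted p = 0.613). Npy5r, a receptor for neuropeptide Y, had groups that did not overlap, at 1.79 ± 0.580 and 1.03 ± 0.266 RPKM (adjusted p = 1).

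Of 14 transcription factors of PVN development and identity, 0 passed and 10 had a change below 0. Sim1, which is needed for PVN neurons to form, was at 19.1 ± 3.29 and 16.3 ± 3.60 RPKM. Otp was at 7.55 to 27.8 RPKM in 5 of the fed libraries and at 109.9 RPKM in fed library 1, against 6.22 to 12.2 RPKM in fasted libraries (-1.13 ± 0.40, adjusted p = 0.689). Without fed library 1 the change was -0.67 (adjusted p = 0.931). Ebf3 was at 48.8 ± 6.19 and 35.6 ± 2.49 RPKM without overlap (-0.44 ± 0.19, adjusted p = 0.869). Sox1, a factor of neural progenitors and some neurons that was outside this list, did fall. It was at 4.58 to 12.4 RPKM in fed libraries (median 8.48) and at 2.53, 3.74, 5.67, 4.74 and 4.37 RPKM in fasted ones, with overlap at the low end of the fed group (-0.87 ± 0.19, adjusted p = 0.0922).

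Genes of fuel use passed singly. Ucp2, a carrier of the inner mitochondrial membrane, was at 14.2 to 22.5 RPKM in fed libraries (median 18.0) and at 32.9, 30.5, 31.5, 25.0 and 23.7 RPKM in fasted ones (0.66 ± 0.14, adjusted p = 0.0710). It was the one gene that passed among 22 of fatty acid oxidation and ketone use, whose median was -0.03. Angptl4, an inhibitor of lipoprotein lipase, went from 2.002 ± 0.770 to 4.19 ± 1.02 RPKM (0.81 ± 0.26, adjusted p = 0.542).

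Scd2, the main brain desaturase that makes monounsaturated fatty acids, was at 156 to 187 RPKM in fed libraries (median 181) and at 118, 131, 148, 147 and 135 RPKM in fasted ones (-0.39 ± 0.08, adjusted p = 0.0782). It was the one gene past the threshold among 14 of fatty acid synthesis, whose median was -0.10. Its relative Scd1 went from 34.3 ± 5.68 to 24.0 ± 3.47 RPKM (-0.49 ± 0.14, adjusted p = 0.353). Of 24 cholesterol synthesis genes, 0 passed and the median was -0.07. The sterol enzyme gene Msmo1 went from 11.8 ± 1.91 to 7.02 ± 2.203 RPKM without overlap (-0.72 ± 0.20, adjusted p = 0.354).

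The list of cAMP and calcium signalling genes held Ppp1r17 (ENSMUSG00000002930, chromosome 6, 56017497 to 56032689), which codes for an inhibitor of protein phosphatases that is switched on by cGMP-dependent protein kinase. It was at 12.3 to 28.0 RPKM in fed libraries (median 18.7) and at 41.0, 41.4, 51.7, 68.5 and 33.9 RPKM in fasted ones. All fasted libraries were above all fed ones, with a log2 change of 1.28 ± 0.25 (adjusted p = 0.0345). It was the one gene past the threshold among the 24, whose median was 0.01. Pde6b, which codes for a subunit of the cGMP phosphodiesterase known from rod photoreceptors, also rose. It was at 0.264 to 0.425 RPKM in fed libraries (median 0.295), close to its no-read value of 0.22, and at 0.959, 2.82, 1.15, 3.16 and 0.774 RPKM in fasted ones (0.99 ± 0.18, adjusted p = 0.0159). The no-read value is what the deposited table holds for a gene with 0 reads.

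Other genes that rose belonged to none of the groups above. Sv2c, a glycoprotein of synaptic vesicles, was at 7.97 to 15.0 RPKM in fed libraries (median 10.7) and at 24.9, 22.2, 28.8, 20.6 and 16 RPKM in fasted ones (0.99 ± 0.18, adjusted p = 0.0163). Megf9, a membrane protein with EGF-like repeats, was at 11.6 to 13.7 RPKM (median 12.3) and at 22.4, 18.2, 19.4, 16.6 and 15.96 RPKM (0.52 ± 0.09, adjusted p = 0.00466). For both genes the groups did not overlap.

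Clmn, an actin-binding membrane protein, was at 5.81 to 10.6 RPKM in fed libraries (median 6.67) and at 17.9, 13.4, 13.2, 11.8 and 11.1 RPKM in fasted ones (0.79 ± 0.16, adjusted p = 0.0449). Dapl1 was at 2.37 to 4.25 RPKM (median 3.72) and at 3.34, 11.2, 7.29, 7.98 and 6.41 RPKM (0.84 ± 0.14, adjusted p = 0.00466). Fasted library 1 was the low one for Dapl1, and within its batch the change was 0.03 against 1.09 and 0.98 in the others. Adam8, a metalloproteinase known from immune cells, was at 0.315 to 0.616 RPKM (median 0.491) and at 6.99, 1.68, 2.25, 2.03 and 2.04 RPKM (1.30 ± 0.25, adjusted p = 0.0349). Here fasted library 1 was the high one, and without it the change was 1.01 with an adjusted p of 0.20. Microglia markers, which immune cells of the brain express, summed to 126 to 139 RPKM in fed and 102 to 115 RPKM in fasted libraries.

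Fat1, a giant cadherin, was at 20.2 to 29.8 RPKM in fed libraries (median 20.7) and at 12.3, 13.7, 13.8, 16.1 and 19.2 RPKM in fasted ones (-0.56 ± 0.12, adjusted p = 0.0943). The predicted gene Gm3739 was at 0.710 to 1.97 RPKM (median 0.888) and at 2.47, 2.95, 3.02, 1.72 and 2.52 RPKM (0.80 ± 0.17, adjusted p = 0.0671), but 79.1% of its 50-base stretches recur in related genes, so its level is uncertain. Gm15374, a pseudogene, had 0 reads in all 6 fed libraries and 0, 1, 2, 0 and 3 reads in the fasted ones, so no fold is given although its adjusted p was 0.0374.

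The 10 genes next in order of p had an adjusted p of 0.101 to 0.140. They were Srxn1, Cnksr2, Pglyrp1, G630018N14Rik, Gpd1, Prkcd, Perm1 and 5330429C05Rik, with higher means in fasted libraries, and Hnrnpc and Gm11688, with lower ones. Gpd1, the glycerol phosphate dehydrogenase that links glucose and lipid metabolism, had the largest change of them. It was at 1.09 to 3.52 RPKM in fed libraries and at 8.06, 8.67, 8.34, 9.65 and 4.63 RPKM in fasted ones (1.71 ± 0.39, adjusted p = 0.128). Prkcd, a protein kinase C gene abundant in thalamus, was at 1.31 ± 0.701 and 4.07 ± 1.03 RPKM (1.17 ± 0.27, adjusted p = 0.128). It is 1 of 7 markers tested for thalamus and zona incerta tissue, of which 6 had a change below 0. The other 6 summed to 38.4 to 56 RPKM in fed and 33.8 to 60.8 RPKM in fasted PVN libraries, which overlap.

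Immediate-early genes, which neurons switch on within minutes of firing, did not pass. Of 19 tested, 14 had a change below 0 and the median was -0.12. Egr1 went from 58.5 ± 19.1 to 35.0 ± 8.51 RPKM (-0.69 ± 0.25, adjusted p = 0.689) and Npas4 from 1.93 ± 1.15 to 4.55 ± 3.14 RPKM (0.80 ± 0.35, adjusted p = 0.869). Of 19 clock genes 0 passed, with a median of -0.08, and Nr1d1 went from 24.7 ± 3.52 to 16.5 ± 5.04 RPKM (-0.60 ± 0.20, adjusted p = 0.559). Of 20 insulin and FoxO signalling genes 0 passed, with a median of 0.04, and Foxo1 was at 8.58 ± 3.20 and 11.9 ± 2.25 RPKM. Of 25 respiratory chain genes 0 passed, with a median of -0.02. Of 3 genes of the Prader-Willi region that were tested 0 passed, and Magel2 went from 15.3 ± 2.06 to 11.8 ± 1.49 RPKM (-0.35 ± 0.13, adjusted p = 0.726).

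The response of the PVN was set against that of the other nuclei by testing the PVN change minus the mean change of the ARC, VMH and DMH. In this test 4 of 33579 genes (0.0119%) passed, all higher, and 1343 (4%) had an unadjusted p under 0.05, 652 of them with a higher change in the PVN (1.94% of all tested). They were Fyb2 (1.79 ± 0.26, adjusted p = 0.00191), Rgs2 (0.99 ± 0.15, adjusted p = 0.00191), Adam8 (1.62 ± 0.30, adjusted p = 0.0471) and Ppp1r17 (1.55 ± 0.29, adjusted p = 0.0477). Fyb2 and Rgs2 stayed past the threshold in each of the 11 fits that left out 1 PVN library. Adam8 missed it without fasted library 1 or fed libraries 4 or 5 (adjusted p 0.103 to 0.11), and Ppp1r17 without fasted libraries 3 or 4 or fed libraries 4 or 5 (0.144 to 0.198). The 11 PVN libraries do not share control libraries with the other nuclei, but the nuclei came from the same brains. The fit treated all libraries as independent, so its SE and p leave out any pairing by mouse.

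**Figure D4:**
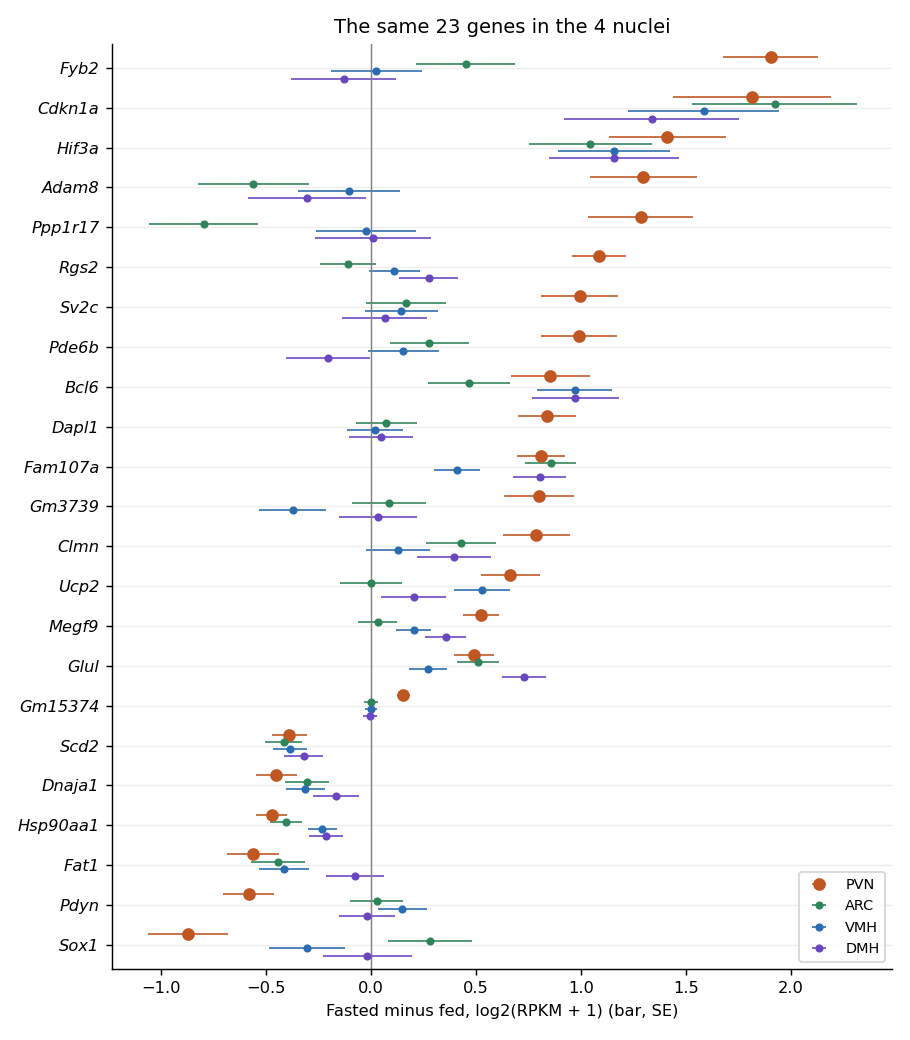
Change of 23 of the 24 genes in each of the 4 nuclei, fasted minus fed on the log2(RPKM + 1) scale, with SE bars. Large orange points are the PVN, where the genes were chosen. Fyb2, Adam8, Ppp1r17 and Rgs2 passed the test of the PVN against the other nuclei, while the points of Cdkn1a, Hif3a, Bcl6, Fam107a, Glul, Scd2, Dnaja1 and Hsp90aa1 lie on the same side of 0 in all 4 nuclei.

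Rgs2 was expressed in every nucleus. Its fed and fasted means were 103 ± 11.9 and 96.5 ± 19.8 RPKM in the ARC (n = 5 and 5), 72.4 ± 5.78 and 79.0 ± 12.7 RPKM in the VMH (n = 6 and 6) and 42.5 ± 5.74 and 51.4 ± 4.54 RPKM in the DMH (n = 5 and 4). Fed PVN libraries were thus within the range of the other nuclei, and fasted PVN libraries were above all of them. Fyb2 was at 0.595 ± 0.216 and 1.20 ± 0.467 RPKM in the ARC, 1.27 ± 0.852 and 1.23 ± 0.498 RPKM in the VMH, and 0.890 ± 0.591 and 0.674 ± 0.179 RPKM in the DMH. Adam8 was at 1.56 ± 0.956 and 0.657 ± 0.284 RPKM in the ARC, 1.30 ± 1.06 and 1.03 ± 0.553 RPKM in the VMH, and 1.07 ± 0.167 and 0.694 ± 0.290 RPKM in the DMH.

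Ppp1r17 was most abundant in the DMH, at 49.6 ± 8.10 and 49.7 ± 5.75 RPKM, and was at 15.3 ± 6.34 and 8.33 ± 3.03 RPKM in the ARC and 5.89 ± 1.36 and 6.07 ± 2.77 RPKM in the VMH. The mean of 47.3 ± 13.5 RPKM in fasted PVN libraries was near the DMH level. It is also 1 of 6 markers used here for DMH and lateral tissue. The other 5 markers (Hcrt, Pmch, Npvf, Prlh and Hmx2) summed to 8.85 to 19.5 RPKM in fed and 8.49 to 15.1 RPKM in fasted PVN libraries, and Prlh was at its no-read value in all 11. Their sum overlapped between the states, with medians of 12.02 and 9.004 RPKM.

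The 5 glucocorticoid-induced genes that rose in the PVN were not set apart from the other nuclei by this test. The adjusted p of the difference was 1 for Fam107a, Glul, Hif3a, Cdkn1a and Bcl6, with differences of -0.01 (Glul) to 0.29 (Hif3a). Over the 24 members the median change was 0.62 (PVN), 0.49 (ARC), 0.45 (VMH) and 0.66 (DMH). For the cytosolic chaperones the medians were -0.31, -0.32, -0.31 and -0.19. Of the 24 genes past the threshold in the PVN, 17 passed in no other nucleus. By nucleus, the number that passed again was 5 (ARC), 4 (VMH) and 2 (DMH). Fam107a was one of those for the ARC (0.86, adjusted p = 0.000651) and the DMH (0.80, adjusted p = 0.00391). Hsp90aa1 was another for the ARC (-0.41, adjusted p = 0.0361). Pdyn had a difference of -0.64 ± 0.16 from the other nuclei, where its changes were 0.03, 0.15 and -0.02 in the ARC, VMH and DMH, but with an adjusted p of 0.353 the difference missed the threshold.

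Markers of other cells in the PVN libraries were followed over 15 lists. Neuron markers summed to 1679 to 2082 RPKM in fed and 1682 to 2002 RPKM in fasted libraries, and astrocyte markers to 532 to 630 and 496 to 629.7 RPKM. The lower microglia sums of the fasted libraries did not overlap the fed ones, and of the 13 genes behind them 12 had a change below 0 and 0 passed. Endothelial markers were at 141 to 189 and 163 to 204 RPKM, and pericyte and smooth muscle markers at 127 to 157 and 102 to 134 RPKM. Markers of the meninges and choroid plexus were at 18.8 to 25.3 and 11.5 to 21.03 RPKM. Among tanycyte markers, Rax was at its no-read value in all 11 libraries. The part of these shifts in the changes above was not tested. In bulk tissue, fewer cells of a type and less RNA per cell cannot be told apart.

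**Figure D5:**
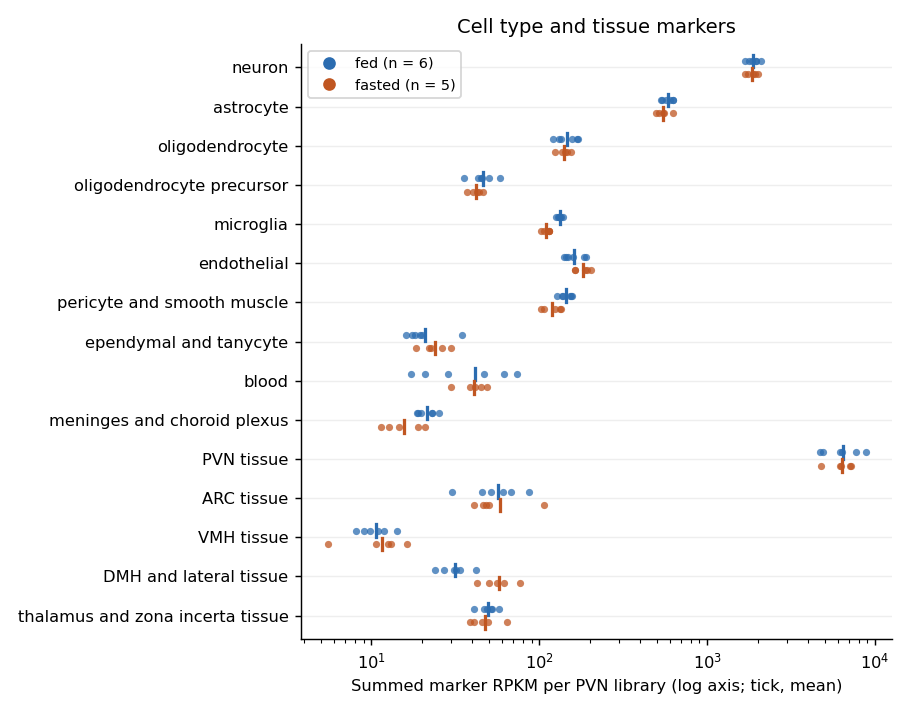
Summed RPKM of the markers of each cell type or neighbouring tissue in each PVN library, on a log axis. Blue points are the 6 fed and orange points the 5 fasted libraries, and vertical ticks are group means. Microglia sums separate (126 to 139 against 102 to 115 RPKM), and the DMH and lateral tissue sums separate through Ppp1r17, which is in that list.

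The calls differed in how far they rested on single libraries. Of the 24 genes, Rgs2, Fyb2, Fam107a, Hsp90aa1, Dapl1, Megf9, Pde6b and Sv2c kept an adjusted p under 0.1 in all 11 fits that left out 1 PVN library. Ppp1r17 missed it without fed libraries 4 or 5 (0.103 to 0.116), Glul without fasted library 3 or fed library 4 (0.116 to 0.124), and Hif3a without fasted library 1 or fed libraries 3 or 4 (0.102 to 0.183). Gm15374 missed it in 4 of the 11 fits (0.107 to 0.146), and Clmn, Ucp2 and Bcl6 in 6 (0.113 to 0.261). Cdkn1a, Pdyn, Scd2 and Sox1 missed it in 7 (0.105 to 0.321), Gm3739 and Fat1 in 8 (0.102 to 0.293), and Dnaja1 in 9 (0.116 to 0.284). Each gene kept its direction in all of these fits. With only the 11 PVN libraries in the fit, 3 genes passed, 2 of them among the 24 (limma adjusted p = 0.0427 for Fam107a and 0.0907 for Hif3a). The third was Tagln3, named here after its value was seen, with a log2 change of -0.36 and an adjusted p of 0.0427, against 0.659 with all libraries in the fit. In that fit Rgs2 had an adjusted p of 0.110 and Fyb2 and Hsp90aa1 of 0.111, while that of Megf9 was 0.294, of Sv2c 0.429, of Pde6b 0.671 and of Dapl1 0.872.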

How the data were processed

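Gene expression was measured by single-end RNA-seq without strand information in 42 laser-captured hypothalamic nuclei, of which 11 were PVN. Per the labels and the methods of the study, reads were mapped with TopHat2 2.0.11 to GRCm38, and Cufflinks 2.2.1, edgeR and limma were named among the tools. The counting step is not given in the sources used here. The values the authors deposited are RPKM in 1 table. Its low values recurred in 3 sets of libraries (10, 16 and 16), taken here as batches. The methods describe 3 batches of laser capture, but the labels do not link the sets to them. In each set the mean log2 value of a gene matched its mean over all libraries (largest median shift 3e-08). Batch means had thus been removed over all libraries of a set, whatever their nucleus or state. The sets do not hold the nuclei and states in equal shares. The fit here does not account for that step, and its effect on the changes and p-values was not tested. From 97.7% to 98.9% of low values lay a whole number of reads (within 0.05, up to 10 reads) above the lowest. In the mean library 5 reads were added, so depths are estimates that rest on exon lengths. Of the annotated genes with 1 value in all 42 libraries, 85.3% matched their exon length within 1%. Genes near the median no-read value of 1.46 RPKM are poorly resolved.

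The study modelled counts. RPKM were tested here with limma 3.58.1 in R 4.3.3 on log2(RPKM + 1), with 8 group means over all 42 libraries, an intensity trend and Benjamini-Hochberg adjustment, two-sided, over 33579 genes with at least 1 RPKM in at least 4 libraries. Genes with an adjusted p under 0.1 are called past the threshold. Of these 33579, 9595 were at the no-read value in all 11 PVN libraries. GENCODE M21 matched 36049 IDs. Shared 50-base stretches were counted over its transcripts. Named genes are those past the threshold in either test, the next 10 by p, and members of the lists. The members and lists were chosen with earlier results of these data known. Of the 24 genes past the threshold, 1 is counted but not reported here, as are 2 list members. Lists are described by counts and medians without a test.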

Additional observations from a re-analysis of the deposited data

Results flagged for a closer look

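In 224 groups of PVN libraries (112 genes or marker sums, fed and fasted apart), 25 had a library far from the others by Dixon's test. The nominal rate of that test is 1 in 20, or 11.2. It was run on RPKM rather than their logs, and the genes share libraries. The 11.2 is thus not a measured chance rate, and an excess over it was not tested. Libraries 1 of both states accounted for 12 of the 25.

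Fed library 1 was high for Otp (109.9 RPKM against 7.55 to 27.8 in the other 5), Ucn3 (46.9 against 6.47 to 20.6), Mt2 (164 against 56.0 to 89.6), Creb1 (17.6 against 10.50 to 12.28), Sstr1 (9.45 against 3.82 to 5.20), Npas4 (4.14 against 0.902 to 1.99) and Gpd1 (3.52 against 1.09 to 1.78). Of the 50-base stretches of Mt2, 45.8% recur elsewhere. Fasted library 1 was high for Adam8 (6.99 RPKM against 1.68 to 2.25), Nr3c1 (25.3 against 13.5 to 16.3), Gm11688 (3.58 against 3.54 to 3.55) and the ARC markers (107 against 40.9 to 50.4), and low for Elavl4 (12.2 against 23.8 to 27.7). The ARC markers in this library were led by Ghrh at 71.9 and Npy at 18.2 RPKM. The Gm11688 values are all at its no-read value.

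Fed library 2, the shallowest, was high for Nfkbia (12.6 RPKM against 2.75 to 3.75). Fed library 3 was low for Scd2 (156 against 177 to 187) and high for Fat1 (29.8 against 20.2 to 23.8) and Zbtb16 (5.75 against 1.38 to 2.94). Fed library 4 was high for Pde6b (0.425 against 0.264 to 0.303) and the ependymal and tanycyte markers (34.8 against 16.13 to 20.02), fed library 5 for Glul (273 against 171 to 206), and fed library 6 for Gm3739 (1.97 against 0.710 to 1.14) and G630018N14Rik (2.82 against 1.36 to 1.65). Fasted library 2 was low for Nr4a3 (0.843 against 3.58 to 4.60). Fasted library 3 was high for Rgs6 (2.10 against 0.744 to 1.13), and fasted library 5 for Hsph1 (115 against 88.0 to 91.2) and Fasn (18.4 against 14.5 to 15.6).

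The change of 4 genes differed between the PVN and the mean of the other 3 nuclei, with limma adjusted p-values of 0.00191 for Fyb2 and Rgs2, 0.0471 for Adam8 and 0.0477 for Ppp1r17.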

How the results depend on the processing

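The count of 24 genes in the PVN was 23 with a pseudocount of 0.1, 24 without a filter, with no intensity trend or with a robust fit, 29 with libraries scaled to the same median and 21 with a mean of at least 5 RPKM. It was 41 with a pseudocount of 5, 3 with only the PVN libraries in the fit, 141 with array weights, and 40 among genes above the no-read value in at least 4 PVN libraries, an alternative chosen after seeing the data. With quantile normalization 24 passed, 21 higher and 3 lower, against 18 and 6, and 21 were shared with the 24 of the main fit. Similar counts need not hold the same genes. Without fasted library 3, 28 genes passed and 15 of them were among the 24. Leaving out 1 PVN library gave 11 to 48 genes: 15 without fasted library 1 or 2, 38 without fasted library 4, 48 without fasted library 5 and 11 without fed library 4. The 4 genes that set the PVN apart were 2 with a mean of at least 5 RPKM, 12 with array weights, and 2 to 12 without 1 PVN library (12 without fasted library 5, 2 without fed library 4 or 5). The causes were not tested. None of the genes past the threshold changed direction under these alternatives.

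Replicate numbers did not pair the libraries. Deviations of same-numbered fed and fasted PVN libraries correlated at -0.087, 0.054, -0.052, 0.029 and -0.019 over 14467 genes, and only the second pair correlated best with its own number. With the replicate block within each nucleus, in which fed library 6 drops out, 16 genes passed in the PVN, 9 of them among the 24, and 2 in the test against the other nuclei, 1 of them (Fyb2) among the 4 and the other Dapl1 (0.83, adjusted p = 0.0177). The adjusted p of the others of the 4 was 0.303 (Rgs2), 0.359 (Adam8) and 0.387 (Ppp1r17). The median change of the glucocorticoid-induced list ran from 0.43 (pseudocount 5) to 0.68, and that of the cytosolic chaperones from -0.36 to -0.27, over all alternatives. Amplified low-input RNA, 5 or 6 libraries a state and estimated depths near 5 M reads limit what could be seen. The no-read values hide changes of genes under about 1 RPKM.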
